A study of Mus musculus with 59 samples.

Results

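Interferon-stimulated genes are the genes that cells switch on when type I, type II or type III interferons bind their receptors. The 38 genes examined here were chosen by name, and a probe belonged to one of them where its accession was paired with that symbol in the reference gene table. In all, 36 of the 38 were matched, through 47 of the 55681 probes of the array, out of 37163 genes or transcripts measured. The antiviral GTPases Mx1 and Mx2 had no matched probe and are given no value. A gene with several probes is represented by its brightest probe.

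RNA came from the lung, liver and forestomach of 20 male Muta™Mouse, a transgenic strain used to score mutations in the tissues of an exposed animal, aged about 16 weeks. Each group of 5 mice was gavaged daily for 28 days with olive oil alone (vehicle), or with 25 (low), 50 (medium) or 100 (high) mg/kg-bw/day of a polycyclic aromatic hydrocarbon in olive oil, and tissue was taken 72 h after the last dose. The sample titles and the treatment description name the compound as benzo(b)fluoranthene (BbF), whereas benz(a)anthracene stands in the exposure labels and in the design text. The study's methods list these doses for BbF and different doses for benz(a)anthracene. Each of the 59 arrays compared a tissue (Cy5) with 1 universal mouse reference RNA pooled from cell lines (Cy3), giving 12 tissue and dose groups of 5 arrays, except 4 for lung at the low dose, because mouse 7 of that group was analysed in liver and forestomach only. Values below are log2(Cy5/Cy3), so that 1 unit is a doubling against the reference, and they can be set against each other for the same gene only. The tissue pieces were bulk samples, in which fewer cells of a type and less RNA per cell cannot be told apart.

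Type I interferon acts through receptor-bound kinases that phosphorylate STAT proteins, among them STAT2. With IRF9 these form a complex that binds the interferon-stimulated response element, a promoter motif built from repeated GAAA blocks, while type II interferon acts through gamma-activated sites and drives the guanylate-binding proteins (GBPs) and immunity-related GTPases (IRGs) most strongly. The products sense foreign nucleic acid, block viral translation and replication, and feed back on the pathway. In barrier tissues and liver a low tonic interferon signal keeps many of these genes on without infection.

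Promoter windows of many, but not all, members show this motif. RefSeq windows from 250 bases before to 50 bases after the transcription start (build GRCm38.p6) were found for 27 members, as 31 windows. Its core, searched as GAAA, any 2 bases and GAAA again, occurred on either strand in 17 of these windows, against 3.44% of all 32851 windows of the same length. The type II element core TTCNNNGAA occurred in 6 windows against 8.3% of all windows, and GCGTG, the core of the element bound by the aryl hydrocarbon receptor, in 10 windows against 32.4% of all. The 160 bases before the start are shown for windows with and without a match to this core. Those with a match are Isg15 (an ubiquitin-like modifier), Ifit1 (a translation inhibitor), Rsad2 (an antiviral radical SAM enzyme) and Igtp (an IRG). That of Ifi44, the gene on which the lung results turn, has no match to the exact core. Capitals mark this core or its reverse complement, and each sequence reads in the direction of the gene: Isg15 chr4:156200819-156200978 (minus strand), Ifit1 chr19:34640729-34640888 (plus), Rsad2 chr12:26456453-26456612 (minus), Igtp chr11:58199396-58199555 (plus) and Ifi44 chr3:151749911-151750070 (minus).
Isg15: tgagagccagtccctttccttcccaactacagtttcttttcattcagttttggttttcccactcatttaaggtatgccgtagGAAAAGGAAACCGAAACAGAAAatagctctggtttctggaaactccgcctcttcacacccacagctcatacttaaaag
Ifit1: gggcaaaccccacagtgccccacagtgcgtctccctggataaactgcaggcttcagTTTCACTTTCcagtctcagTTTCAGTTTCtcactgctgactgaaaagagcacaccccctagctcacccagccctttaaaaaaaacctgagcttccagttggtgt
Rsad2: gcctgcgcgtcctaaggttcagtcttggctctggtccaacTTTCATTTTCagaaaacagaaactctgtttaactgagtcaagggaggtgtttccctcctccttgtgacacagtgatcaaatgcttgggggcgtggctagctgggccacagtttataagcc
Igtp: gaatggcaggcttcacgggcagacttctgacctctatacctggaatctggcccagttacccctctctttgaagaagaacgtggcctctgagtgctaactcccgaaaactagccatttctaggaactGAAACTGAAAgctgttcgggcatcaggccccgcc
Ifi44: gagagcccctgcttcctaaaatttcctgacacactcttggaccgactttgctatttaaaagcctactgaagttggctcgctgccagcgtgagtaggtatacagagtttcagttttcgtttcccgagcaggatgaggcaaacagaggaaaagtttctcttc
The Isg15 stretch holds 3 overlapping matches, Ifit1 holds 2, and Rsad2 and Igtp hold 1 each. For Ifi44 this core has no match in the window, although the printed stretch holds GAAA blocks, read as TTTC, at other spacings. GCGTG is in the Ifi44 window and also in those of Rsad2 and Igtp. A match of letters is a description of the sequence and was not tested as a binding site.

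Some arrays stood apart before any comparison. The 8 liver arrays of the third liver slide (vehicle mouse 5, low-dose mice 6 and 10, medium-dose mice 11 and 15, high-dose mice 18 to 20) had 10.7 to 12.9% of probes well above background, against 37.0 to 46.1% on the other 12 liver arrays, and their log2 ratios lay close to 0. On that slide 3 to 13 members per array were well above background, and 20 members on none of the 8 arrays. In lung, the array of medium-dose mouse 13 had 68.8% of probes well above background, against 44.7 to 52.6% on the other lung arrays. All 36 members were above background on every lung array and 27 on every forestomach array. The forestomach arrays carried varying amounts of glandular stomach RNA: the mean of 9 glandular markers, among them the proton pump subunits Atp4a and Atp4b, ran from 0.21 to 6.71 in forestomach, against -0.02 to 1.42 in lung and -0.11 to 0.19 in liver. The marker list was drawn up after the values were seen.

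**Figure D1:**
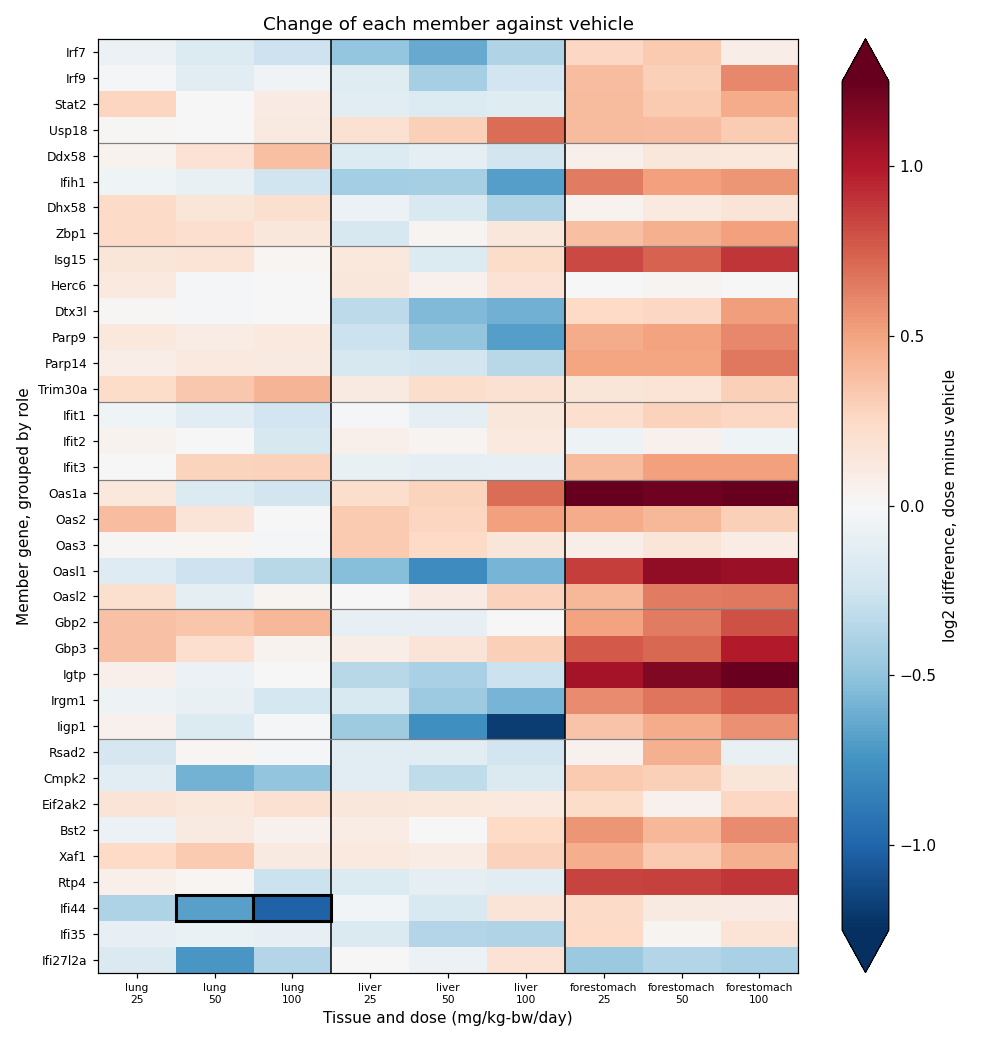
Difference of each of the 36 members from vehicle (log2, colour scale) in the 3 tissues at each dose (mg/kg-bw/day), with members grouped by role. Boxes mark the calls, both Ifi44 in lung, and the forestomach columns are mostly above 0 without a call.

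In lung 1 member was called. Ifi44, a cytoplasmic protein that restrains several viruses, fell with dose, whereas the other 35 matched members were not called at any dose. A member was called where limma's moderated test gave an adjusted p of at most 0.05 over all probes and the change was at least 1.5-fold. At the high dose 1 of 36 members was called, against 1.77% of all genes. At the medium dose it was again 1, against 0.584%, and at the low dose 0, against 0.433%, with 2 members at an unadjusted p under 0.05.

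Ifi44 in lung stood at -1.62, -1.54, -1.40, -1.03 and -1.57 in vehicle mice 1 to 5. At the low dose the 4 mice had -2.17, -1.93, -1.74 and -1.43. At the medium dose the values were -2.23, -2.18, -1.66, -1.99 and -2.49, and at the high dose -2.05, -2.79, -2.44, -2.30 and -2.62. Every medium-dose and high-dose lung lay below every vehicle lung, whereas the low-dose group overlapped with vehicle. The difference from vehicle was -0.38 at the low dose (adjusted p = 0.497), -0.68 at the medium one (SE 0.16, adjusted p = 0.0333) and -1.01 at the high one (SE 0.16, 95% interval -1.34 to -0.67, adjusted p = 0.000607), a 2.01-fold lower level. Over the 19 lung arrays the slope was -0.99 per 100 mg/kg-bw/day (adjusted p = 0.000408), and Ifi44 was the 1 member called for a trend, against 1.49% of all genes. Within each of the 3 lung slides the high-dose difference was -0.84, -1.23 and -0.89. The medium-dose call was lost when mouse 1, 3, 4, 11, 12, 14 or 15 was left out, with differences from -0.58 to -0.72, and when arrays were centred on their median in place of loess (-0.45). With that centring the high-dose difference was -0.60 (adjusted p = 0.011).

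**Figure D2:**
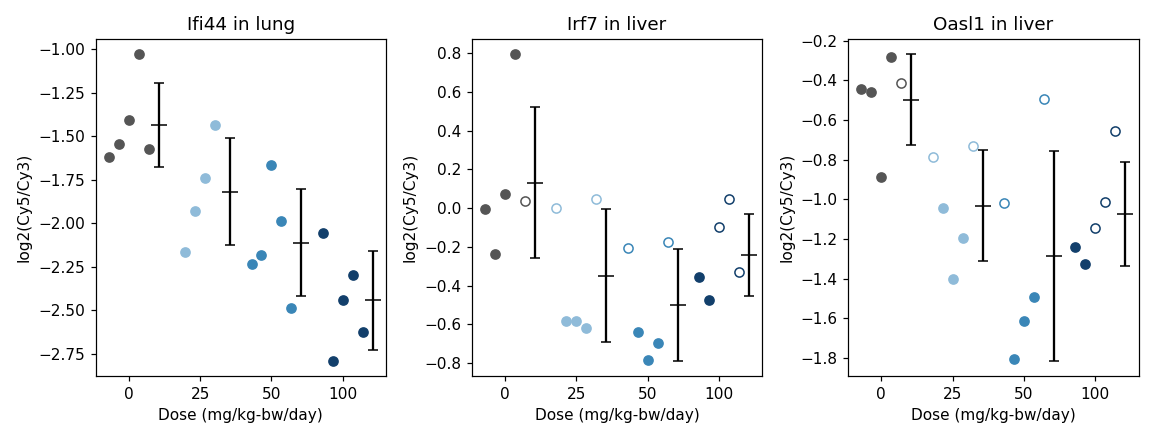
log2(Cy5/Cy3) of Ifi44 in lung (left), Irf7 in liver (middle) and Oasl1 in liver (right) by dose group (mg/kg-bw/day, evenly spaced), with 1 point per mouse and the mean ± SD at the right of each group. Hollow points are the third liver slide; Ifi44 in lung steps down from a mean of -1.43 in vehicle to -2.44 at the high dose.

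Of the 4 nucleic acid sensors, Ddx58 (RIG-I, a sensor of viral RNA ends) had values of 0.38, 0.75, 0.57, 0.77 and 0.77 in vehicle lungs and 0.91, 1.13, 0.76, 1.16 and 1.16 in high-dose lungs. The high-dose values were the higher ones, with 1 of 5 inside the vehicle range. Its difference of 0.38 (SE 0.10, adjusted p = 0.0277) and its slope of 0.39 (adjusted p = 0.0138) passed the p threshold in limma but stayed under 1.5-fold, so it was not called. Ifih1 (MDA5, a sensor of long double-stranded RNA) ran from 1.59 to 1.79 in vehicle and from 1.27 to 1.56 at the high dose, with no overlap. Its slope was -0.25 (adjusted p = 0.0489), again under 1.5-fold, and its other probe differed by -0.11 at the high dose. The high-dose values of these RNA sensors lay on opposite sides of vehicle. With median centring Ddx58 was called (0.78), together with Trim30a (0.66), Ifit3 (0.68) and Gbp2 (0.82), all higher. The share of all genes called with that centring is not given here. With it 34 of 36 members lay above vehicle in place of 17. The direction of most lung members thus depends on how the arrays are centred.

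Apart from Ifi44, which is among the other effectors, no member of the remaining roles was called in lung. The signalling and feedback genes (Irf7, Irf9, Stat2 and the deISGylase Usp18) differed by -0.26 to 0.11, and the OAS family, which makes or resembles enzymes of the 2-5A signal for RNA decay, by -0.34 to 0.03. The GBP and IRG GTPases, which attack the membranes around intracellular pathogens, differed by -0.22 to 0.42. The IFIT family ranged from -0.24 to 0.29. The Isg15, ligase and PARP genes ran from -0.00 to 0.43, the highest being Trim30a, a TRIM family protein (adjusted p = 0.067). Among the other effectors, Cmpk2, a mitochondrial nucleotide kinase, differed from vehicle by -0.59 at 50 and by -0.50 at 100 mg/kg-bw/day (adjusted p = 0.216 at the higher). Ifi27l2a differed by -0.73 at 50 (SE 0.42, adjusted p = 0.462) and by -0.36 at 100 mg/kg-bw/day (adjusted p = 0.729), with vehicle lungs spread from -0.27 to 2.49. Over the 36 members the median difference was 0.05, 0.00 and -0.00 at the low, medium and high doses, against 0.00, -0.00 and -0.00 over all genes. At an unadjusted p under 0.05 the list held 9 members at the high dose, or 25% of it, against 21.0% of all genes. That share of all genes is given for this comparison only. Counts at an unadjusted p elsewhere in the text are therefore not read as results about the members.

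Genes around the members moved in lung as well. None of the 10 interferons and receptors and none of the 12 JAK, STAT, IRF and SOCS genes was called at any dose or for the trend. Among the 12 upstream sensors and adaptors 1 was called: Cgas, the cytosolic DNA sensor, rose by 0.83 at the low dose (adjusted p = 6.55e-05) and 0.70 at the medium dose (adjusted p = 0.0003), and differed by 0.28 at the high dose (adjusted p = 0.0723). Of the 18 other interferon-induced genes measured, 1 was called at the high dose, the IRG Ifi47, which fell by 0.93 (adjusted p = 0.00314).

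Markers of other cell types moved beside Ifi44. Of the 6 T and NK cell markers, 2 were called at the high dose and both were lower: Gzma, a granule protease (-2.69, adjusted p = 0.00313), and Klrb1c, an NK receptor (-0.75, adjusted p = 0.0142), which was well above background in 5 of 5 vehicle lungs but in 1 of 5 high-dose lungs. The mean level of the 6 ran from 0.74 to 2.04 in vehicle lungs and from 0.21 to 1.15 in high-dose lungs. Of the 5 macrophage markers 1 was higher (Marco, 1.30), of the 4 neutrophil markers 1 (S100a8, 1.20) and of the 4 endothelial markers 2 (Pecam1, 0.74, and Cdh5, 0.82). The macrophage mean ran from 2.02 to 2.67 in vehicle and from 2.20 to 2.66 at the high dose, the neutrophil mean from 2.25 to 3.30 and from 3.06 to 4.32, and the endothelial mean from 3.78 to 4.19 and from 4.00 to 4.45. None of the 4 plasmacytoid dendritic cell markers was called. The part of these cells in the Ifi44 result was not tested.

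In liver, 0 of 36 members were called at the low, medium and high doses, with 2, 3 and 2 members at an unadjusted p under 0.05 in limma. Over all genes 0%, 0% and 0.00538% were called, and 0.0135% for the trend, for which 0 members were called as well (2 at an unadjusted p under 0.05). With all 20 liver arrays, Ifi44 differed by 0.16 at the high dose, and by -0.47 without the third liver slide. Within slides, the Ifi44 difference from vehicle in liver was -0.21 on the first and -0.45 on the third slide at the high dose. The second slide held no high-dose liver. At the low dose it was -0.17, -0.46 and -0.44 on the 3 slides, and at the medium dose -0.26, -0.90 and -0.34. These within-slide differences were not tested. The largest difference was that of the IRG Iigp1, -1.18 at the high dose (adjusted p = 0.731): its values were 4.27 to 4.96 on the first 2 liver slides and 0.51 to 1.71 on the third, which held 3 of the 5 high-dose livers and 1 of the 5 vehicle livers. Dose and slide partly coincide in liver, and the part of the slide in this difference was not tested.

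Oasl1, an OAS-like protein that limits translation of Irf7, was called lower at the medium and high doses once the slide was taken into account. Irf7, the master regulator of interferon production, was called lower there at the medium dose only. The share of all genes called in those fits is not given here, so these calls cannot be set against it. Oasl1 on the first 2 slides stood at -0.44, -0.46, -0.89 and -0.28 in vehicle mice 1 to 4. The low-dose mice 7 to 9 had -1.05, -1.40 and -1.19, the medium-dose mice 12 to 14 had -1.81, -1.61 and -1.49, and the high-dose mice 16 and 17 had -1.24 and -1.32. All dosed livers of these slides were below all vehicle livers. Across all 20 arrays the Oasl1 difference was -0.79 for medium-dose mice (adjusted p = 0.721) and -0.58 for high-dose mice (adjusted p = 0.555). Without the third slide it was -1.12 (adjusted p = 0.00111) and -0.76 (adjusted p = 0.0199), and with the slide as a block over all 20 arrays -0.87 (adjusted p = 0.0077) and -0.79 (adjusted p = 0.0121).

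Irf7 on the same slides was at -0.00, -0.24, 0.07 and 0.80 in vehicle mice 1 to 4, at -0.59, -0.58 and -0.62 at the low dose, at -0.64, -0.79 and -0.70 at the medium dose and at -0.36 and -0.48 at the high dose. Again no dosed liver of these slides reached the vehicle range, although vehicle mouse 4 was far above the other vehicle mice. The medium-dose difference was -0.63 with all arrays (adjusted p = 0.846), -0.86 without the third slide (adjusted p = 0.0274) and -0.72 with the slide as a block (adjusted p = 0.0287). Leaving out mouse 4 as well as the third slide gave -0.65 (adjusted p = 0.00951), but with the slide as a block and without mouse 4 Irf7 was no longer called. Oasl1 was still called there, at -0.76 (adjusted p = 0.0322) and -0.72 (adjusted p = 0.0199) for medium and high dose. Without mouse 4 and the third slide, Bst2 (tetherin, which holds budding virions at the cell surface) was also called, higher at the high dose (0.70, adjusted p = 0.029).

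In forestomach no single member was called, but nearly the whole list lay above vehicle. Members called were 0 of 36 at the low, medium and high doses, against 0%, 0% and 0.0996% of all genes, and 0 for the trend, against 0.0861%. In limma 5, 4 and 12 members reached an unadjusted p under 0.05, and 6 for the trend. The share of all genes at that p is not given beside these counts. The median difference over the 36 members was 0.39, 0.40 and 0.49, with 33, 35 and 33 of 36 members above vehicle, while the median over all genes was -0.00 at each dose. The comparisons share the 5 vehicle mice, and members vary together, so these counts are not independent of each other. The smallest adjusted p at the high dose was 0.239, for Dtx3l (0.52), an E3 ligase that pairs with Parp9.

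Oas1a, which makes the 2-5A messenger, had the largest difference, 1.26 at the high dose (adjusted p = 0.672), over a spread of -3.68 to 1.20 in the 20 forestomachs. Igtp, an IRG guarding against intracellular parasites, shows the shape of the difference. Its forestomach values were -0.80, -1.75, -0.78, -0.60 and -0.81 in vehicle mice and 0.16, -0.35, -0.28, 1.89 and 0.02 at the high dose. All 5 high-dose values exceeded all vehicle values, and mouse 19 was far above the rest. The difference was 1.23 (SE 0.56, adjusted p = 0.549). Stat2, the partner of IRF9 in the type I complex, was at -0.75, -0.74, -0.74, -0.84 and -1.08 in vehicle and at -0.23, -0.64, -0.72, 0.09 and -0.35 at the high dose, again without overlap (0.46, SE 0.19, adjusted p = 0.479). Isg15 overlapped: vehicle values were -1.14, -2.83, -2.21, -1.58 and -2.72, and high-dose values -0.11, -2.04, -2.04, -0.28 and -1.51 (0.90, adjusted p = 0.737).

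By role, the forestomach medians at the high dose were 0.79 for the 5 GBP and IRG GTPases, 0.66 for the 5 OAS genes, 0.56 for the 6 Isg15, ligase and PARP genes, 0.39 for the 4 signalling genes, 0.34 for the 4 sensors, 0.26 for the 3 IFIT genes and 0.17 for the 9 other effectors. All of the GBP, OAS, PARP, signalling and sensor members were above vehicle. The members below vehicle were Ifit2, Rsad2 and Ifi27l2a, at -0.05, -0.09 and -0.40. Of the 18 other interferon-induced genes outside the list, 17 were also above vehicle at the high dose (median 0.38, none called), whereas the 10 interferons and receptors had a median of 0.05. Within the 3 forestomach slides, the median member difference at the high dose was 0.50, 0.52 and 0.23. At the medium dose it was 0.20, 0.62 and 0.09, and at the low dose 0.39, -0.10 and 0.41.

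**Figure D3:**
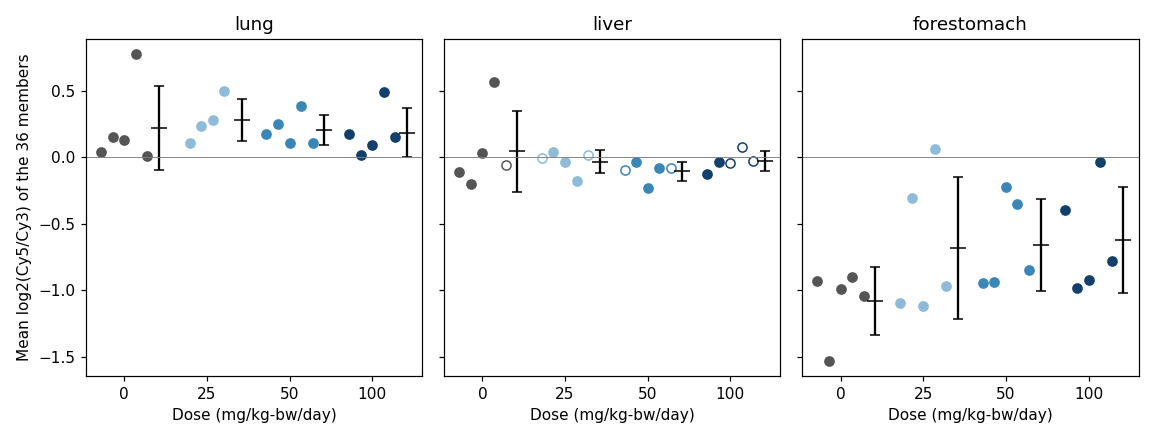
Mean log2(Cy5/Cy3) of the 36 members in each mouse by dose group (mg/kg-bw/day, evenly spaced) in lung, liver and forestomach, with mean ± SD at the right of each group and hollow points for the third liver slide. Vehicle mouse 4 is the top point in lung (0.77) and in liver (0.56); the forestomach dose groups contain both values near the vehicle range and values near 0.

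The forestomach values were uneven between mice of the same dose. The mean of the 36 members ran from -1.53 to -0.90 in vehicle forestomachs. At the low dose mice 7 and 9 had -0.30 and 0.06 and the other 3 had -1.12 to -0.97. At the high dose mice 16 and 19 had -0.39 and -0.04 and the other 3 had -0.98 to -0.78. At the medium dose mice 13 and 14 had -0.23 and -0.35 and the other 3 had -0.94 to -0.85. Thus 3 low-dose, 2 medium-dose and 2 high-dose mice lay inside the vehicle range. Low-dose mice 7 and 9 were high in different members: mouse 7 had 3.02 for Gbp2, 2.39 for Iigp1 and 2.05 for Igtp, but -1.85 for Rsad2 and -2.69 for Usp18. Mouse 9 had 0.83 for Isg15, 0.07 for Rsad2 and -1.26 for Usp18, each the highest of the 5 low-dose mice, with 0.65 for Iigp1.

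Glandular stomach markers moved with some of these values. Oasl1 fell into separate ranges: in the 12 forestomachs with a glandular marker mean of 5.19 to 6.71 it was -0.87 to 1.67, and in the 8 with 0.21 to 4.06 it was -3.18 to -2.68. The 12 were vehicle mice 1 and 4, low-dose mice 6, 9 and 10, medium-dose mice 11, 13 and 14, and high-dose mice 16 to 19, so that the high-dose group held the most of them. The group means of the glandular markers were 3.83, 4.06, 3.90 and 4.49 from vehicle to high dose. With the marker mean as a covariate the median member difference was 0.38, 0.39 and 0.47 at the low, medium and high doses, 34, 35 and 33 members were above vehicle, and none was called (smallest adjusted p 0.166 at the high dose, 12 members at an unadjusted p under 0.05).

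**Figure D4:**
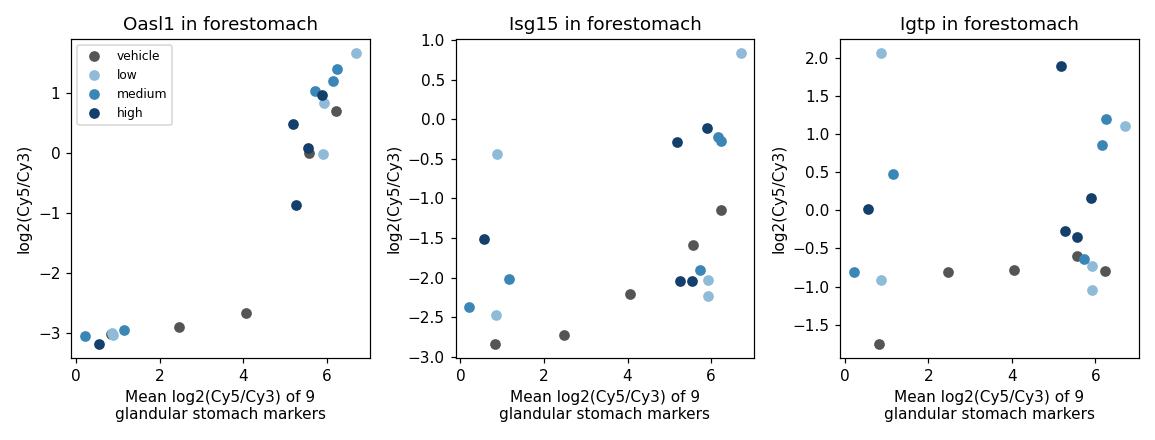
Oasl1 (left), Isg15 (middle) and Igtp (right), as log2(Cy5/Cy3), against the mean of 9 glandular stomach markers (log2(Cy5/Cy3)) in the 20 forestomach arrays, 1 point per mouse, coloured by dose group. Oasl1 splits with the glandular mean, from at most -2.68 in 8 arrays to at least -0.87 in 12, whereas Isg15 and Igtp have high and low values at both ends.

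The high-dose effects of the tissues were compared directly. For lung against liver 0 of 36 members differed (4 at an unadjusted p under 0.05 in limma), against 0.385% of all genes. For lung against forestomach 0 differed (7 at an unadjusted p under 0.05), against 0.912%, and for liver against forestomach 0 (7 at an unadjusted p under 0.05), against 0.0377%. The Ifi44 effect was -1.01 in lung and 0.11 in forestomach, a difference of -1.12 (adjusted p = 0.0742). The tissues came from the same animals, and with mouse as a replicate block 2 members differed between lung and forestomach: Ifi44 (-1.12, adjusted p = 0.0318) and Irf9, part of the type I complex (-0.65, adjusted p = 0.0393). With slide as a block Ifi44 differed by -1.08 (adjusted p = 0.0406). The share of all genes called with either block is not given here, so these calls cannot be set against it. The call of these differences between lung and forestomach thus depends on the model, and for lung against liver no member was called with the mouse block either.

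Levels in vehicle mice differed between tissues for most members. Against forestomach, 27 of 36 members were higher in lung, where 12.1% of all genes were, and 0 were higher in forestomach, against 10.9%; of the 36 members, 30 had an unadjusted p under 0.05 in either direction. Against forestomach, 25 members were higher in liver, where 9.83% of all genes were, and 2 were higher in forestomach, against 14.6%. Between lung and liver, 10 members were higher in lung, against 17.4%, and 6 were higher in liver, against 11.7%. Forestomach was thus the lower tissue in most calls. With median centring in place of loess the calls were 14 higher in lung than in forestomach and 0 lower, 7 higher and 2 lower in liver than in forestomach, and 9 higher and 1 lower in lung than in liver. The share of all genes called with that centring is not given here, so these counts cannot be set against it. Each slide held 1 tissue, so slide and tissue cannot be told apart, and the vehicle livers include 1 array of the third slide.

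Bst2 had the clearest order of the 3 tissues. Its values were 1.16, 1.16, 0.97, 2.02 and 1.20 in liver, -0.07, -0.19, 0.13, 1.08 and 0.62 in lung, and -2.28, -2.71, -2.19, -2.10 and -2.14 in forestomach. Liver exceeded forestomach by 3.58 (adjusted p = 6.1e-09) and lung exceeded forestomach by 2.60 (adjusted p = 3.04e-07), without overlap, and liver exceeded lung by 0.99 (adjusted p = 0.00311) with 1 lung inside the liver range. Rtp4, a chaperone-like protein that restrains flaviviruses, stood 2.71 higher in lung and 2.19 higher in liver than in forestomach. Irf7 was 0.13 ± 0.39 in liver, -1.54 ± 0.36 in lung and -1.94 ± 0.25 in forestomach (mean ± SD, n = 5), and of the 3 pairs only lung against forestomach was not called. Iigp1 was 3.84 ± 1.40 in liver, 1.52 ± 0.47 in lung and 0.36 ± 0.17 in forestomach.

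Other members followed another order. Ifi27l2a, a small interferon-induced membrane protein, was 2.71 higher in lung than in liver (adjusted p = 0.00493) and 2.37 higher in forestomach than in liver (adjusted p = 0.0146). Gbp2 was highest in lung, 2.18 ± 0.34, lower in forestomach, 1.16 ± 0.55, and lowest in liver, 0.02 ± 0.40, with each neighbouring pair called. Ifit3 (an adaptor of the IFIT complex) was 1.62 higher in lung than in liver and 2.42 higher than in forestomach. Oasl1 was 2.13 lower in lung than in liver (adjusted p = 0.00941). In vehicle forestomachs Oasl1 ran from -3.03 to 0.71, with the glandular split described above.

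**Figure D5:**
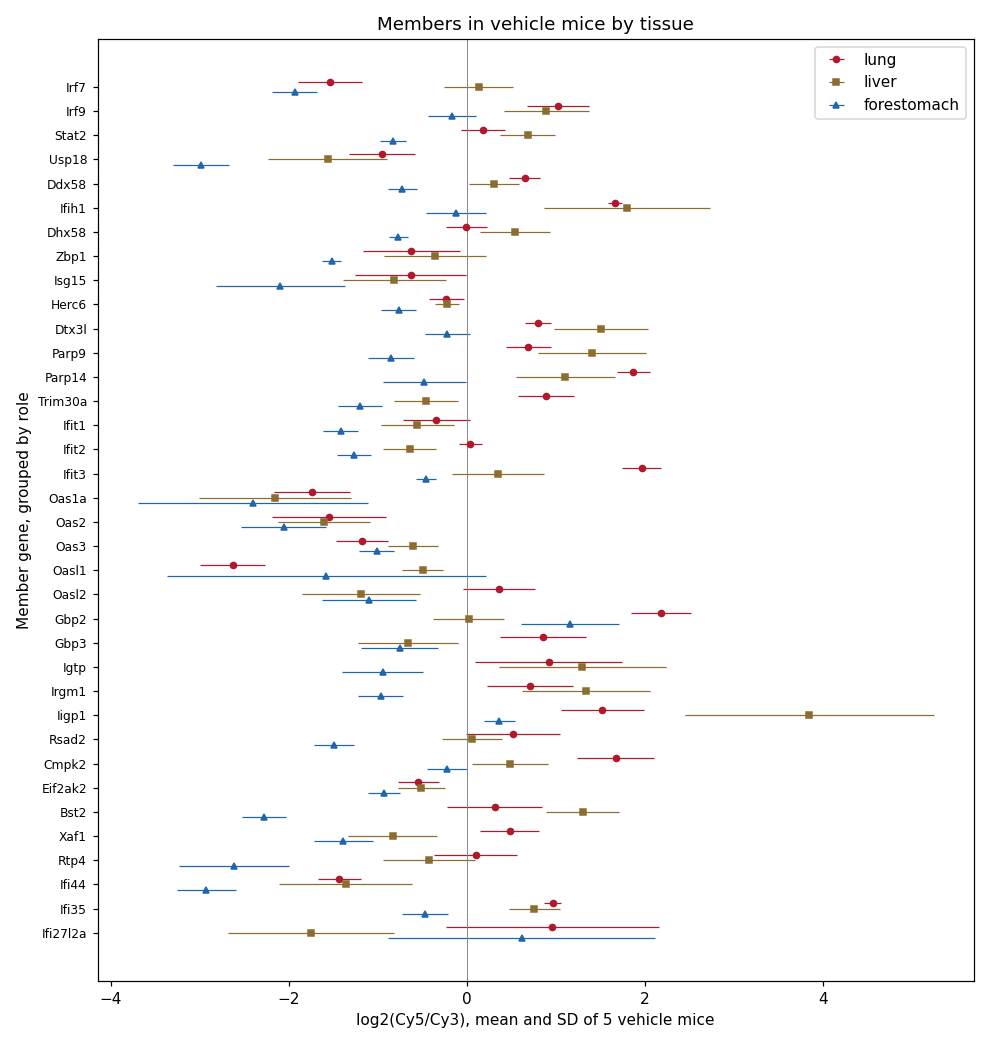
Level of each member (log2(Cy5/Cy3)) in vehicle lung, liver and forestomach, as the mean (symbol) and SD (line) of 5 mice. Forestomach means are the lowest for most members, while Gbp2 and Ifi27l2a are lowest in liver.

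The members varied together between mice of the same group. After each group mean was removed, the mean correlation between pairs of members was 0.41 over 19 lung arrays, 0.12 over 20 liver arrays and 0.52 over 20 forestomach arrays, against 0.00 over all genes in each tissue. These are descriptions, since the members of a pair share arrays. In liver the value was 0.54 over the 12 arrays without the third slide, and in forestomach it was 0.58 after adjustment for the glandular markers. Rtp4 followed the mean of the other members most closely in lung (r = 0.96) and in liver (r = 0.88), and Parp9 (r = 0.95) and Oasl2 (r = 0.95) did so in forestomach. Ifih1 and Ifit2 did not follow in lung (r = -0.12 and -0.20). Ifi44 had r = 0.60 with the rest in lung.

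Vehicle mouse 4 stood apart in both lung and liver. Its mean over the members was 0.77 in lung, against 0.01 to 0.15 in the other 4 vehicle lungs, and 0.56 in liver, against -0.20 to 0.03 in the other 4, while its forestomach value of -0.90 was the highest of its group by a small margin. In this lung Isg15 stood at 0.38, Igtp at 2.31 and Bst2 at 1.08, each the highest of the vehicle group. The same lung had 5.04 for Tff1 and 5.28 for Gkn2, secreted proteins of mucous epithelium, each the highest of all lung arrays. Both are on the list of glandular stomach markers, most of which stayed low in lung. The highest value on any lung array was 0.09 for Atp4b, 0.20 for Atp4a, 0.29 for Pgc, 0.34 for Gkn1 and 0.65 for Cblif. It was 1.48 for Muc5ac and 2.87 for Tff2. The deviations of the member mean from its group correlated between lung and liver of the same mouse at r = 0.78 (rank correlation 0.59, 19 mice), and without mouse 4 at r = 0.34 (rank correlation 0.34, 18 mice), so that the higher value rests on this mouse. Between lung and forestomach it was r = 0.33 (19 mice, 0.37 without mouse 4), and between liver and forestomach r = 0.04 (20 mice, -0.15 without mouse 4). Without mouse 4 the mean pairwise correlation of members was 0.27 in lung and 0.03 in liver.

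Probes of the same member differed in size. Of the 36 members, 11 had a second probe. In lung at the high dose Ddx58 differed by 0.38 on its brightest probe and 0.29 on the other (adjusted p = 0.115), and Cmpk2 by -0.50 and -0.46. Ifih1 differed there by -0.25 on its brightest probe (adjusted p = 0.0674) and by -0.11 on the other (adjusted p = 0.626). In forestomach at the high dose Isg15 differed by 0.90 and 0.39, Oas1a by 1.26 and 0.60, and Dtx3l by 0.52 and 0.03. Counting a member as called when any of its probes was called changed none of the dose comparison counts.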

How the data were processed

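Total RNA from each tissue was labelled with Cy5 and hybridised with Cy3-labelled universal reference RNA to Agilent 60K mouse arrays, with no dye swap. The intensity values were deposited as Feature Extraction output, and per the file headers they are median pixel signals of each spot. The authors also deposited log2 ratios after LOWESS without background correction, which were used only as an alternative.

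Median signals were loess-normalised within each array in limma 3.58.1 (R 4.3.3). Control spots had weight 0, non-uniform spots were left out and repeated spots were averaged. Dose groups were compared with vehicle within each tissue, as was a slope over dose, high-dose effects were compared between tissues, and vehicle levels were compared with all tissues in 1 model, each by lmFit and eBayes with Benjamini-Hochberg adjustment over 55681 probes. A gene was called at an adjusted p of at most 0.05 and 1.5-fold, the thresholds of the study, whose Fs test was not run. Accessions were named through RefSeq. The steps were tested on simulated data.

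The members and all other lists were chosen with earlier results of these data known. The genes named were the called members, members fixed for each role and called pathway genes; Ifih1, Cmpk2, Trim30a, Ifit2, Ifit3, Gbp2, Iigp1, Dtx3l, Parp9, Rtp4, Oas1a, Oasl1 and Irf9 were named, where not called, after their values were seen. Mouse numbers pair the tissues, since per the labels 1 number is 1 animal; over all genes, deviations from the group mean correlated between tissues of the same mouse with medians of -0.03 (lung and liver), 0.04 (lung and forestomach) and 0.03 (liver and forestomach). The number of arrays limits the precision. Alternatives changed the normalization, background correction, source of values, filter on dim probes, probe of a gene, fold threshold, slide or mouse block, and left out each mouse or the third liver slide.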

Additional observations from a re-analysis of the deposited data

Results flagged for a closer look

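In 156 groups of 4 or 5 arrays tested, 16 had a highest or lowest value far from the other arrays of the group by Dixon's ratio, where chance gives about 1 in 20. Vehicle mouse 4 stood high in lung for the mean of the members (0.773), and in liver for Rsad2 (0.64) and Bst2 (2.02). Vehicle mouse 2 stood low in forestomach for the mean of the members (-1.53), Oasl2 (-2.01) and Igtp (-1.75). Low-dose mouse 9 stood high in forestomach for Usp18 (-1.26), Ifit1 (-0.041) and Rsad2 (0.071). High-dose mouse 19 stood high for Igtp in both lung (2.11) and forestomach (1.89). The remaining values were those of Ifit1 in the lung of low-dose mouse 10 (-0.028, high), Irf7 in the lung of medium-dose mouse 15 (-2.13, low), Bst2 in the liver of medium-dose mouse 15 (0.70, low, on the slide with the dim liver arrays), Stat2 in the forestomach of vehicle mouse 5 (-1.08, low) and Ddx58 in the forestomach of vehicle mouse 4 (-0.44, high). Mice 4, 9 and 19 account for 9 of the 16 values, and no cause was tested.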

How the results depend on the processing

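No result changed to a called value of the opposite direction under any alternative run. Of 137 member counts recomputed under alternatives fixed at the start, 122 stayed within 1.5 times. With median centring in place of loess the members called were 0 and 5 in lung for medium and high dose and 5 for the lung trend, and for vehicle levels 10 between lung and liver, 14 between lung and forestomach and 9 between liver and forestomach. The median member difference then became 0.39 in lung at the high dose and -0.49, -0.59 and -0.90 in liver from low to high dose, while the median of all genes moved by at most -0.12 in these dose comparisons and by 0.20 and -0.19 for the high-dose effects of lung against liver and of liver against forestomach. Without a fold threshold the counts were 2 in lung at the high dose and 3 for the lung trend. In liver, 2 medium-dose and 1 high-dose calls were made both with slide as a block and without the third liver slide. The share of all genes called is not given for any of the alternative fits of this section. In settings added after the data were seen, without that slide and vehicle mouse 4 the liver counts were 2, 2 and 1 for medium dose, high dose and trend, and with slide as a block without mouse 4 they were 1 and 1. For the high-dose effect of lung against forestomach, 1 member was called with the dim-probe filter and 1 with slide as a block.

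With the mouse as a replicate block, which pairs the tissues of each animal, 2 members were called for the effect of lung against forestomach, Ifi44 (-1.12, adjusted p = 0.0318) and Irf9 (-0.65, adjusted p = 0.0393); it changed no other count beyond 1.5 times. Leaving out 1 mouse at a time gave 0 to 1 members in lung at the medium dose, 1 to 2 for the lung trend (Cmpk2 added without mouse 16) and 0 to 1 for the effect of lung against forestomach (Ifi44 without mouse 9). The cause of these changes was not tested. Signal limits the liver values, since 20 of 36 members were not above background on any array of the third slide.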
